A study of Mus musculus with 8 samples.

Results

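The cytosolic ribosomal protein genes encode the proteins that, with ribosomal RNA, build the ribosomes of the cytoplasm. Members were chosen by symbol, as genes named Rpl or Rps followed by a digit, p or sa, without the Rps6k kinases and without symbols that carry a pseudogene suffix. The rule found 84 genes among the 13869 of the table, 48 named for the large subunit and 36 for the small subunit. The label was taken to hold for 79 of the 84, 47 of the large and 32 of the small subunit. These are annotated as protein-coding and named for a ribosomal protein or for a paralog of one, such as Rpl7l1. The annotation gave the other 5 as 4 pseudogenes (Rpl37rt, Rps3a2, Rps3a3 and Rps4l) and Rps19bp1, a gene for a protein that binds Rps19 and is not part of the ribosome.

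RNA was sequenced from ventricles of mouse embryos at E14.5. The mutant group held 4 libraries of Mib1flox; TnT-Cre hearts, in which the troponin T promoter directs Cre to cardiomyocytes, so that endothelial, epicardial and other cells of the ventricle keep the gene. The WT group held 4 libraries of wild-type hearts of the same age, and no treatment was given to either genotype. Each genotype gave 16 hearts, whose RNA was combined into 4 pools. Whether the pools stem from separate litters is not stated, so the p-values cover pool-to-pool spread, which may be partly technical.

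A ribosome holds 1 copy of nearly every one of these proteins, and their genes are transcribed at high and matched rates in growing tissue such as the fetal heart. Most of their mRNAs begin with a cytosine followed by a run of pyrimidines, the 5′ terminal oligopyrimidine (TOP) tract, through which growth signals via mTOR set their translation together. Ribosomal protein mRNAs have also been copied back into the mammalian genome many times, and these processed pseudogenes can be nearly identical to the gene.

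Start windows are shown first, because the pyrimidine run at the start is the sequence by which this family is known. RefSeq start sites of build GRCm38.p6 were found for 59 of the 84 genes, and the window ran from 15 bases before to 15 bases after the first listed start. Capitals mark the longest run of C or T where it reached 8 bases, read on the transcribed strand from 5′ to 3′. The first 6 genes shown have such a run, and the last 2, Rpl22 and Rps28, do not.
Rpl28, chr7:4792950-4792979, plus strand: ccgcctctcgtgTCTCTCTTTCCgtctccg
Rpl38, chr11:114668565-114668594, plus strand: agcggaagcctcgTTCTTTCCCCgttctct
Rps6, chr4:86857353-86857382, minus strand: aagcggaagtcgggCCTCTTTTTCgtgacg
Rps10, chr17:27635230-27635259, minus strand: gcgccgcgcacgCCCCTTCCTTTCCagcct
Rps18, chr17:33955651-33955680, minus strand: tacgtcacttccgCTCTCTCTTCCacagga
Rps27, chr3:90213634-90213663, minus strand: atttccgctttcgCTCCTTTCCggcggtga
Rpl22, chr4:152325711-152325740, plus strand: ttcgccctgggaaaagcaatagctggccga
Rps28, chr17:33824548-33824577, minus strand: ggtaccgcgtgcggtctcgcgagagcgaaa

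A run of at least 8 pyrimidines stood in 25 of the 59 windows (42.4%), against 11.9% of the windows of all 27025 genes with a start site and 9 of the windows of 69 mitochondrial ribosomal protein genes. On the opposite strand, the share was 3.39% of the ribosomal protein windows and 12.9% of all windows. Within 250 bases before to 50 bases after the start, CCGGAA on either strand was found in 50.8% of the 59 promoters, against 15.2% of all promoters of that length. GGGCGG on either strand was found in 62.7%, against 35.9%, and TATAAA in 10.2%, against 14.2%. The mitochondrial ribosomal protein genes had CCGGAA in 56.5%, GGGCGG in 49.3% and TATAAA in 5.8% of 69 promoters. These matches describe letters in a window at 1 listed start and are no evidence of binding.

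A second set of sequences is shown because it bears on how the members were counted: stretches of 90 coding bases from members and from genes that resemble them, with differing bases in capitals. The sequences are those of the GENCODE M21 transcripts (assembly GRCm38), and positions count from the first base of the member's coding sequence. Rps13 and its processed pseudogene Rps13-ps2 were identical over all 453 aligned coding bases, here at positions 1 to 90.
Rps13: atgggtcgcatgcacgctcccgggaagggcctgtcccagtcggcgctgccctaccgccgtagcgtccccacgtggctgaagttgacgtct
Rps13-ps2: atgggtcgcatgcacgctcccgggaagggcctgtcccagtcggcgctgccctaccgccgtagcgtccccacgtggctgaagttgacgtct
Rps18 and Rps18-ps3 differed at 3 of 456 aligned bases, of which 1 lies in positions 92 to 181.
Rps18: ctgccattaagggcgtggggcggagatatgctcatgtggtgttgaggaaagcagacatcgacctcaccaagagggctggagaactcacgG
Rps18-ps3: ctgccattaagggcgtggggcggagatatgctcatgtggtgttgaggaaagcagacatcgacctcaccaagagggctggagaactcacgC
Rps3a1 and the pseudogene Rps3a2, which the symbol rule counts as a member, differed at 4 of 792 aligned bases, 2 of them in positions 579 to 668.
Rps3a1: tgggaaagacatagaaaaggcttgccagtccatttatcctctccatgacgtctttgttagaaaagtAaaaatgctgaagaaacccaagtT
Rps3a2: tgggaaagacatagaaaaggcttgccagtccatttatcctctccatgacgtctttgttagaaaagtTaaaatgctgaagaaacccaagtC
The coding paralogs Rps27 and Rps27l were by contrast 77.3% identical and differed at 19 of the bases in positions 49 to 138.
Rps27: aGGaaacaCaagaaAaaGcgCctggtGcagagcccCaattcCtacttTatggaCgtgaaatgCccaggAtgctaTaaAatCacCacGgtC
Rps27l: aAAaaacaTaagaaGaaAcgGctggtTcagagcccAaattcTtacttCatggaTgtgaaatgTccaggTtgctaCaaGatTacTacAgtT

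The 8 libraries held between 6307634 and 11506082 counts, and 3 counts, the floor used here, equal 0.265 to 0.472 counts per 1000000 of the normalised library size (CPM), a limit that covers counting error only. Mib1 had 106.5, 103, 95.4 and 96.4 CPM in the mutant libraries, against 150.4, 165.6, 160.6 and 166.8 CPM in the WT libraries. The groups did not overlap, and the log2 difference was -0.68 (SE 0.06, adjusted p = 8.62e-06, limma). Cardiomyocyte markers fixed for the check were all in the table (12 of 12), with summed levels of 42802 to 45891 CPM in mutants and 44782 to 49118 CPM in WT. The log2 difference, mutant minus WT, was below 0 for 10 of the 12 (median -0.07), against 49.7% of all genes, and 0 were called. Mutant replicate 1 was the deepest library.

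All 84 members passed the filter on low values (a mean log2 CPM of at least 0), and the lowest count of any member in any library was 45. No member was called at an adjusted p under 0.05 by limma, with or without voom weights, where 2.24% of the 13740 genes tested were called (0.99% higher and 1.25% lower in mutants). At an adjusted p under 0.1, 2 members, Rpl22 and Rps25, would be called lower, against 4.01% of all genes in either direction. An unadjusted p under 0.05 was reached by 50 members, all lower in mutants, while 7.85% of all genes reached it in that direction. For members higher in mutants the count was 0, against 6.94% of all genes.

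The members' differences lay mostly on 1 side. The log2 difference, mutant minus WT, was below 0 for 74 of the 84, against 49.7% of all genes, and the median was -0.18 (quartiles -0.26 and -0.11), against 0.001 over all genes. In bulk ventricle RNA, less ribosomal protein mRNA per cell and fewer cells rich in it cannot be told apart. For 7 members the 4 mutant libraries all lay below the 4 WT libraries, against 4.65% of all genes, and for 0 members above them, against 4.27%. Those 7 were Rpl7, Rpl22, Rpl26, Rpl36a, Rpl37, Rps23 and Rps25.

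The mutant libraries did not share this difference equally. Measured against the mean of the WT libraries, the median member stood at -0.36, -0.28, -0.001 and -0.11 in mutant replicates 1 to 4 on the log2 scale, and at -0.02, 0.09, 0.01 and -0.09 in WT replicates 1 to 4. Mutant replicates 1 and 2 were low, mutant replicate 4 was close to WT replicate 4, and mutant replicate 3 lay at the WT mean, so the groups overlapped. Mutant replicate 1 held the lowest value of the 8 libraries for 51 members and mutant replicate 2 for 16, while WT replicate 2 held the highest for 58. With mutant replicate 3 left out, limma called 23 members, all lower in mutants, and 3.47% of all genes in either direction. With mutant replicates 1 and 2 both left out, it called 0 members and 1.54% of all genes, and the members' median log2 difference was -0.06.

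**Figure D1:**
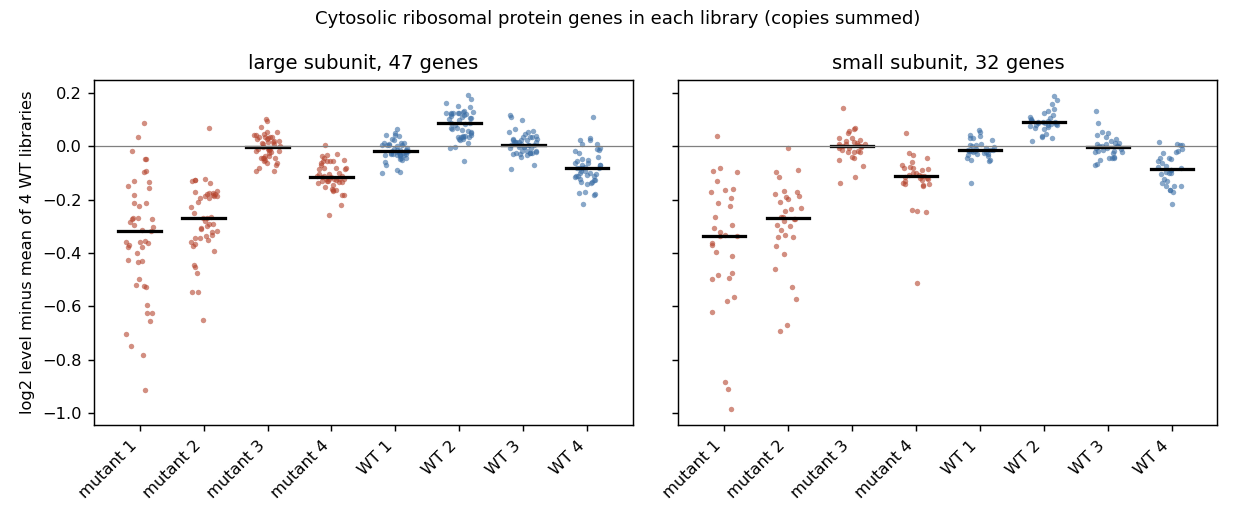
Log2 level of each of 79 coding ribosomal protein genes (points; rows of sequence copies summed with the gene) minus its mean over the 4 WT libraries, by library, with the median as a bar; 47 large subunit genes on the left and 32 small subunit genes on the right. Mutant replicates 1 and 2 lie low in both panels with a wide scatter, and mutant replicate 3 lies at the WT mean.

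As a share of all counts in a library, the 84 members took 2.1%, 2.19%, 2.65% and 2.44% in the mutant libraries, and 2.57%, 2.79%, 2.66% and 2.48% in the WT libraries. The share averaged 2.35% ± 0.25 in mutants and 2.62% ± 0.132 in WT (SD, n = 4 each), and the groups overlapped.

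Other features of the libraries are given for comparison, and their part in the member values was not tested. For the calls among markers, the shares over all genes were 1.25% called lower and 0.99% called higher in mutants. Mitochondrially encoded RNA took 8.78%, 7.67%, 7.38% and 7.5% of counts in the mutant libraries, against 7.41%, 7.5%, 7.56% and 8.34% in WT. Erythroid markers were below their WT level in 9 of 12 genes measured, with 2 called lower (Hba-a1 and Ank1), and none was at 0. Their summed level was 2077, 2659, 2880 and 3361 CPM in the mutant libraries, against 3428, 3114, 3709 and 4219 CPM in WT. Mutant replicate 1 was the lowest library both in this sum and in the members' share of counts. Within WT, replicate 4 had the highest sum and the lowest share, and replicate 2 the lowest sum and the highest share. Macrophage markers summed to 100 to 118 CPM in mutants and to 129 to 161 CPM in WT, with 11 of 13 below 0 on the log2 scale and 3 called lower. Endothelial markers summed to 1372 to 1420 CPM in mutants and to 1613 to 1661 CPM in WT, with 5 of 12 called lower. Smooth muscle and pericyte markers summed to 1590 to 1722 CPM in mutants and to 1328 to 1508 CPM in WT, with Acta2 and Cnn1 called higher and Abcc9 lower among 8. Fibroblast and cushion markers summed to 4418 to 4858 CPM in mutants and to 4489 to 4888 CPM in WT. Of these 10 genes, Tbx20 was called higher and Fbln1 lower. Epicardial markers summed to 228 to 256 CPM in mutants and to 222 to 236 CPM in WT, with 0 of 8 called. With the erythroid level as a covariate, the members' median was -0.18 and no member was called. That fit called 62 of all 13740 genes, against 308 without the covariate. Erythroid level largely went with genotype in these libraries, so the fit cannot tell the 2 apart.

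The large and the small subunit genes had nearly equal differences. The 48 large subunit members had a median log2 difference of -0.18, with 43 below 0 and 27 at an unadjusted p under 0.05. For the 36 small subunit members the median was -0.19, with 31 below 0 and 23 at an unadjusted p under 0.05. Large minus small came to 0.01, of either sign under other settings. The counts of large over those of small subunit members stood at 1.26, 1.285, 1.3 and 1.3 in the mutant libraries, against 1.33, 1.32, 1.29 and 1.26 in WT, with both groups spanning nearly the same range.

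**Figure D2:**
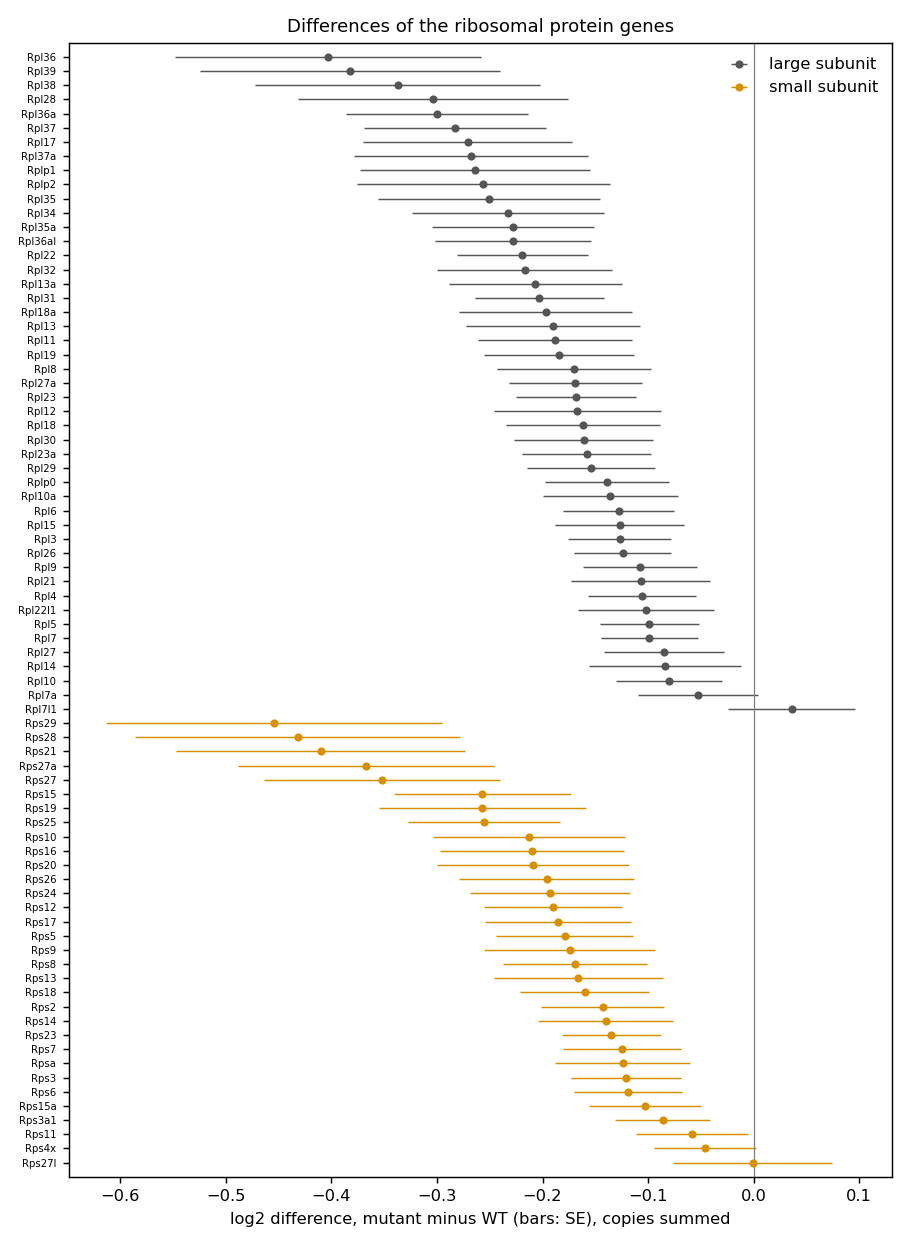
Log2 difference, mutant minus WT, for 79 coding ribosomal protein genes with sequence copies summed (points; bars are the SE of limma), large subunit above and small subunit below, each ordered by difference. All lie below 0 except Rpl7l1, with Rps29, Rps28 and Rps21 lowest; none was called.

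Among the large subunit genes, Rpl22, an RNA-binding protein at the surface of the subunit, had the smallest adjusted p. It had 193, 189, 225 and 220 CPM in the mutant libraries, against 249, 240, 246 and 227 CPM in the WT libraries. Every mutant library lay below every WT library, the gap being narrowest between mutant replicate 3 and WT replicate 4. The log2 difference was -0.22 (SE 0.06, adjusted p = 0.0926).

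Rps25, a small subunit protein near the exit of the mRNA channel that internal ribosome entry sites use, followed. It had 232, 213, 271 and 271 CPM in mutants, against 294, 311, 284 and 282 CPM in WT. All mutant libraries were lower than all WT libraries, replicates 1 and 2 by more than 3 and 4. Its log2 difference was -0.26 (SE 0.07, adjusted p = 0.0969).

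Rpl36a, a component of the large subunit encoded on the X chromosome, had 142, 149, 195 and 182 CPM in mutants, against 205, 218, 198 and 195 CPM in WT. Mutant replicate 3 stood within 1 CPM of the lowest WT library, without overlap. The log2 difference was -0.3 (SE 0.09, adjusted p = 0.102). Its autosomal paralog Rpl36al, 87.9% identical in coding sequence, had 81.2, 81.7, 102 and 96.8 CPM in mutants, against 107, 110, 104 and 101 CPM in WT. Both paralogs were thus lowest in mutant replicates 1 and 2, and Rpl36al overlapped between the groups at mutant replicate 3 (log2 difference -0.23, SE 0.07, adjusted p = 0.155).

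Rpl37, a zinc-binding large subunit protein, had 89.3, 91.3, 94.6 and 88.7 CPM in mutants, against 102, 109, 99.7 and 99.2 CPM in WT. The groups did not overlap, with a log2 difference of -0.17 (SE 0.05, adjusted p = 0.128). Its row shares sequence with Rpl37rt, listed as a pseudogene and here a member by symbol. The sum of both rows was 146, 160, 202 and 189 CPM in mutants and 206, 230, 206 and 201 CPM in WT, which did overlap, with a log2 difference of -0.28 (SE 0.09, adjusted p = 0.111).

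Rpl35a, a large subunit protein mutated in some cases of human Diamond-Blackfan anaemia, averaged 190 ± 31.2 CPM in mutants and 229 ± 7.27 CPM in WT (SD, n = 4 each). The groups overlapped at mutant replicate 3, which had 231 CPM (log2 difference -0.28, SE 0.09, adjusted p = 0.138). Rps23, whose protein lies at the decoding centre, and Rpl26, a large subunit protein that in human cells also binds p53 mRNA, had the smallest spread between libraries of the members. Rps23 had 252, 264, 256 and 256 CPM in mutants, against 277, 299, 278 and 274 CPM in WT, and Rpl26 356, 336, 367 and 339 CPM, against 375, 387, 374 and 387 CPM. Neither gene's groups overlapped, and neither was called (log2 difference -0.13, SE 0.05, adjusted p = 0.187 for Rps23, and -0.12, SE 0.05, adjusted p = 0.214 for Rpl26). In these 2 genes mutant replicate 1 was not set apart from the other mutants.

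The 4 members whose own rows had the highest mean level, before any copies were added, had log2 differences between -0.13 and -0.05. Rplp0, the core of the ribosomal P stalk, had 932, 975, 1095 and 1050 CPM in mutants, against 1109, 1151, 1116 and 1051 CPM in WT. Rpl4, at the peptide exit tunnel, averaged 1065 ± 62.9 CPM in mutants and 1145 ± 27.8 CPM in WT (SD, n = 4 each; log2 difference -0.11). Rpl7, a large subunit protein beside the 5S RNA, had 735, 682, 699 and 666 CPM in mutants, against 740, 766, 736 and 737 CPM in WT, without overlap (log2 difference -0.1, SE 0.05, adjusted p = 0.338). Rps4x, the X-linked form of a small subunit protein, had 978, 895, 940 and 878 CPM in mutants, against 935, 977, 938 and 959 CPM in WT. Its mutant replicate 1 was the highest of all 8 libraries, and the log2 difference was -0.05 (SE 0.05, adjusted p = 0.713). At the low end, Rps19bp1 averaged 12.5 ± 1.04 CPM in mutants and 14.6 ± 2.66 CPM in WT, with overlap.

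Short coding sequences went with larger differences. Members' coding lengths ran from 153 to 1257 bases with a median of 453, against a median of 1419 for the other genes tested. Over the 79 coding members with copies summed, the log2 difference correlated with log2 coding length at Pearson's r = 0.68 and Spearman's rho = 0.66. This is a description across genes that share the same 8 libraries, and genes are not independent replicates. The rank correlation was 0.46 with the mean level and -0.2 with GC content.

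The genes that set this pattern were read library by library, and were picked after their values were seen. Rps29, a small zinc-binding protein of the small subunit with 168 coding bases, had 130, 160, 244 and 236 CPM in mutants, against 244, 268, 263 and 233 CPM in WT. Rps28, a small subunit protein with 207 coding bases, had 61.8, 72.8, 114 and 106 CPM in mutants, against 112, 126, 119 and 102 CPM in WT. Rps21, with 249 coding bases, had 93.9, 120, 175 and 146 CPM in mutants, against 174, 191, 172 and 157 CPM in WT. In all 3, mutant replicates 1 and 2 were far below every WT library while replicates 3 and 4 lay near or among them. The log2 difference was -0.44 for Rps29 (SE 0.16, adjusted p = 0.193), -0.42 for Rps28 (SE 0.15, adjusted p = 0.213) and -0.41 for Rps21 (SE 0.14, adjusted p = 0.171).

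Rpl38, a large subunit protein with 210 coding bases that is required for Hox mRNA translation in mouse embryos, had 90.9, 105, 161 and 140 CPM in mutants, against 157, 170, 144 and 142 CPM in WT. Rpl39, the shortest member with 153 coding bases, lines the peptide exit tunnel. It had 156, 170, 275 and 245 CPM in mutants, against 251, 306, 275 and 244 CPM in WT. For Rpl39, mutant replicates 3 and 4 lay within the WT range and replicates 1 and 2 below it, and the log2 difference was -0.38 (SE 0.15, adjusted p = 0.232). It was -0.25 without mutant replicate 1 and -0.05 without mutant replicates 1 and 2.

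By class of coding length, the 9 members of up to 300 bases had a median of -0.75, -0.55, 0.02 and -0.13 in mutant replicates 1 to 4 relative to the WT mean (log2). The 3 members over 900 bases had -0.18, -0.18, -0.01 and -0.12. The gradient was thus steep in mutant replicates 1 and 2, and Pearson's r with log2 length within single libraries was 0.65, 0.69, 0.03 and 0.14 in mutant replicates 1 to 4. In WT replicates 1 to 4 it was 0.03, -0.54, -0.16 and 0.5. WT libraries are measured against their own mean, so gradients of opposite sign among them were fixed in advance. The WT gradients were also shallower than those of mutant replicates 1 and 2. From up to 300 to over 900 bases, the medians ran from 0.14 to 0.011 in WT replicate 2 and from -0.137 to -0.005 in WT replicate 4.

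Genes outside the family were also lowest in the class of up to 300 bases, with smaller differences. The other genes of up to 300 coding bases (n = 244) had medians of -0.16, -0.12, -0.04 and -0.07 in mutant replicates 1 to 4, against 0.01, 0.02, 0.01 and -0.03 in WT replicates 1 to 4. Other genes over 900 bases (n = 9400) stood at 0.02, 0.02, 0.001 and 0.01 in mutants. Over the classes of mutant minus WT, the medians for members were -0.35, -0.21, -0.16, -0.12 and -0.13 in order of length, and for other genes -0.1, -0.08, -0.03, -0.02 and 0.01. The part of transcript length in the difference was not tested.

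**Figure D3:**
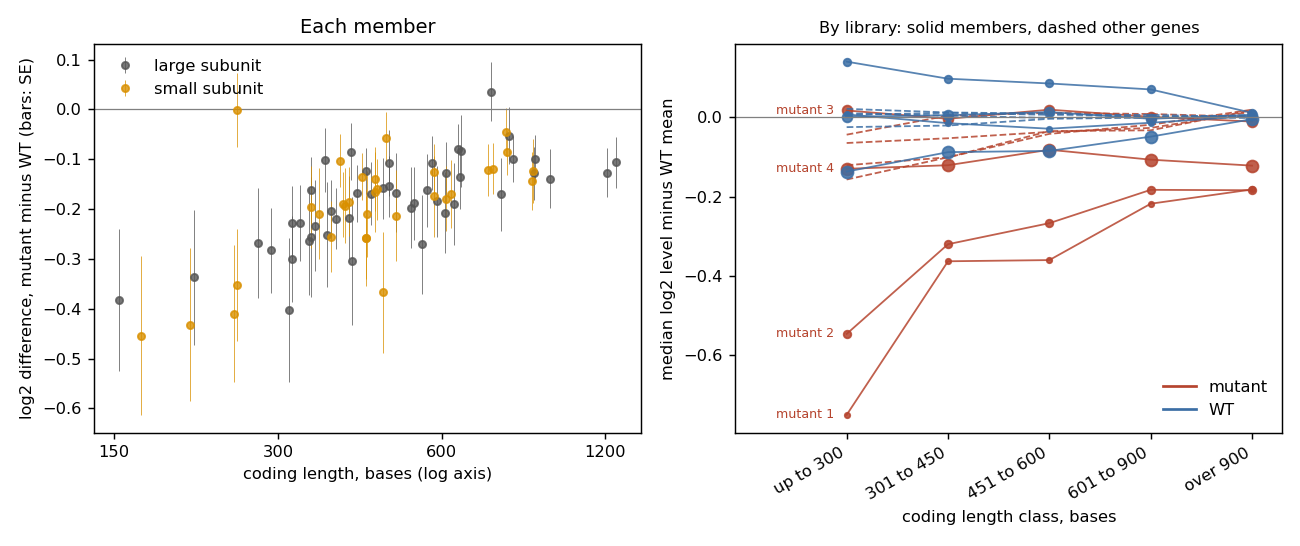
Left, log2 difference (mutant minus WT, bars are SE) against coding length in bases on a log axis for 79 coding ribosomal protein genes. Right, the median log2 level relative to the WT mean in each library by class of coding length, mutants in red and WT in blue (marker size grows with replicate number), with solid lines for members and dashed lines for all other genes tested. Mutant replicates 1 and 2 reach -0.75 and -0.55 in the class of up to 300 bases, and the other 6 libraries stay between -0.14 and 0.14 there.

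Several members had values that scattered far more than the rest, and most of these shared sequence with a pseudogene in the table. The median member shared 52.1% of its 50-base stretches with other annotated transcripts, and 46 members shared more than 50%. For 39 members the table held 44 rows of such copies, each sharing at least 10% of the member's stretches. Quantification by RSEM, which the submitters' processing notes name, divides reads that match several transcripts among them, so rows of members and copies are uncertain 1 by 1 and their sum is less so.

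Rps18, a protein of the small subunit head, had 179, 81.7, 6.73 and 74.6 CPM in mutants, against 90.1, 6.88, 84.7 and 79 CPM in WT. Its copies Rps18-ps3 and Gm6436 together had 196, 302, 445 and 335 CPM in mutants, against 358, 476, 359 and 353 CPM in WT. The libraries with the lowest Rps18 rows, mutant replicate 3 and WT replicate 2, held the highest copy rows. Summed, the family had 375, 384, 452 and 409 CPM in mutants and 448, 483, 444 and 432 CPM in WT, and the SD within groups was 0.098 log2 units, against 1.926 for the member row alone. The log2 difference of the sum was -0.16 (SE 0.06, adjusted p = 0.219), against 0.21 for the row alone.

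Rps3a1, a small subunit protein named here after its values were seen, showed a like pattern with Rps3a2 and Rps3a3. Rps3a1 had 277, 117, 537 and 453 CPM in mutants, against 462, 515, 497 and 608 CPM in WT, the lowest log2 difference of the 84 members at -0.8 (SE 0.33, adjusted p = 0.28). Rps3a2 had 312, 394, 143 and 179 CPM in mutants, against 196, 181, 171 and 112 CPM in WT, the highest log2 difference of the 84 at 0.55 (SE 0.26, adjusted p = 0.34). Rps3a3 averaged 171 ± 59 CPM in mutants and 136 ± 40 CPM in WT (SD, n = 4 each; log2 difference 0.33). The 3 rows together had 776, 758, 798 and 762 CPM in mutants, against 812, 859, 818 and 796 CPM in WT, with an SD within groups of 0.04 and a log2 difference of -0.09 (SE 0.05, adjusted p = 0.403). The largest differences of the 84 rows in both directions thus belonged to rows that are nearly identical in sequence, and their sum was close to 0.

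Rps13, a small subunit protein, had 10.5, 12.8, 44.9 and 45 CPM in mutants, against 14.6, 26.5, 46 and 12.6 CPM in WT, and its identical copy Rps13-ps2 had 177 to 216 CPM in mutants and 203 to 241 CPM in WT. Only 10% of the pair's WT level was assigned to the gene itself, and summing lowered the SD within groups to 0.15 from 1.003 log2 units. Rpl5, which with Rpl11 and the 5S RNA can bind Mdm2, had 37.3 to 47.2 CPM in mutants and 38.8 to 41.8 CPM in WT. The transcribed pseudogene Gm15500, identical to it over 894 coding bases, had 686 to 773 CPM in mutants and 770 to 808 CPM in WT. The Rpl5 row alone gave a log2 difference of 0.09 and the sum gave -0.1 (SE 0.05, adjusted p = 0.337).

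Rps2, at the mRNA entry of the small subunit, had 257, 151, 317 and 364 CPM in mutants, against 113, 190, 242 and 399 CPM in WT. With its copies Rps2-ps13 and Gm10420 the sum was 481, 523, 589 and 546 CPM in mutants, against 568, 598, 595 and 595 CPM in WT. The log2 difference was 0.28 for the row (adjusted p = 0.737) and -0.14 for the sum (SE 0.06, adjusted p = 0.259). Rpl27, another large subunit gene with a log2 difference above 0 by its row (0.09, adjusted p = 0.902), had -0.09 (SE 0.06, adjusted p = 0.521) together with its copy Rpl27-ps3.

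**Figure D4:**
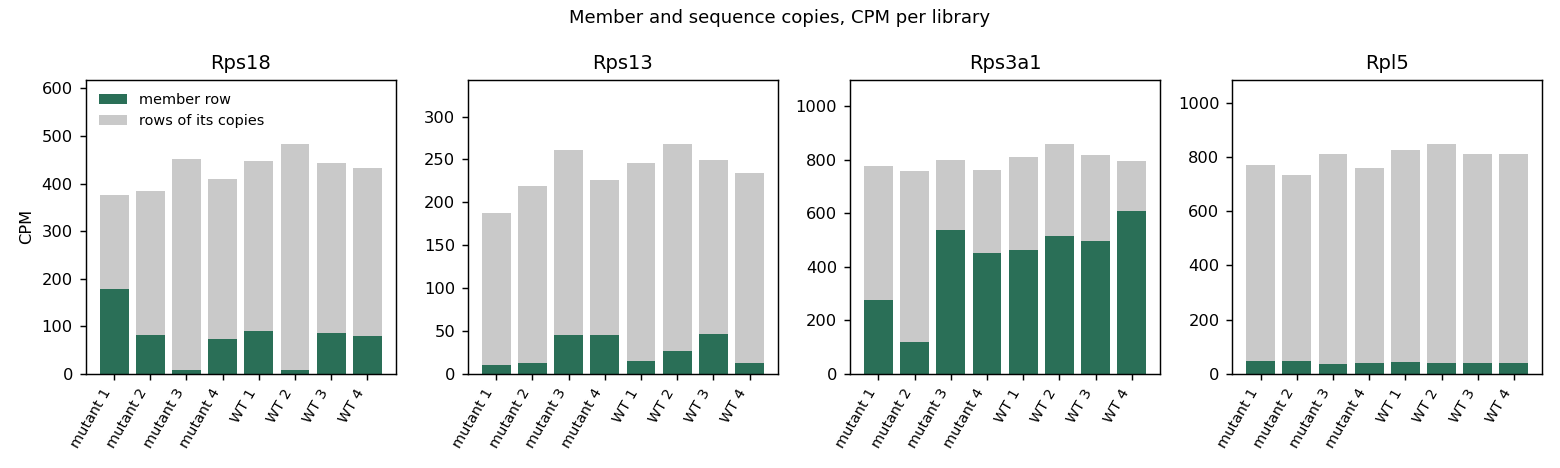
CPM of the member row (dark) and of the rows of its sequence copies (light, stacked) in each library, for Rps18, Rps13, Rps3a1 and Rpl5. The dark part varies between libraries, down to 6.73 CPM for Rps18 in mutant replicate 3, while the height of the stack stays within 375 to 483 CPM for that gene.

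Over the 39 members with copies, the SD within groups had a median of 0.217 log2 units for the member row and 0.113 for the sum, and it was lower for the sum in 29. The highest SD was 1.926 for rows and 0.337 for sums. Rows gave log2 differences of -0.8 to 0.28 with 32 of 39 below 0, and sums gave -0.45 to -0.08 with 39 of 39 below 0. In 16 of the 39 the member row held less of the sum than its copies did.

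**Figure D5:**
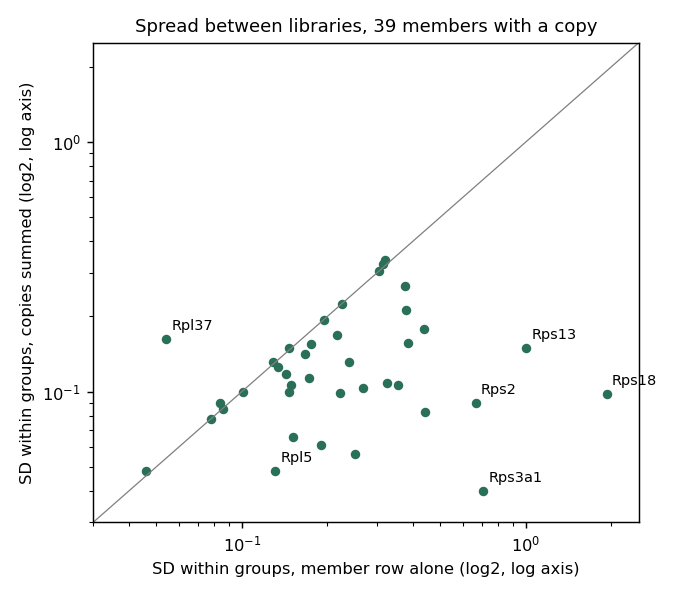
SD between libraries within groups (log2 units, both axes logarithmic) of the sum of a member and its copies against that of the member row alone, for 39 members; the line marks equal values. Of the 39 points, 29 lie below the line, with Rps18 farthest to the right, and Rpl37 lies above it.

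With copies summed, the fit over 13698 genes called 0 of the 79 coding members, against 2.34% of genes, the smallest adjusted p being 0.0843 for Rpl22. An unadjusted p under 0.05 was reached by 58 of the 79, all lower, against 7.86% of genes lower and 7.07% higher. The log2 difference was below 0 in 78 of 79, against 49.7% of genes, with a median of -0.17 and a range of -0.45 to 0.04. The 4 mutant libraries lay below the 4 WT libraries for 8 members, against 4.66% of genes; beside 6 of the 7 named above these were Rpl3 and Rpl31, while Rpl37 overlapped once its copy was added. Rpl31, a large subunit protein near the exit tunnel, had 330, 330, 401 and 372 CPM in mutants, against 405, 421, 412 and 406 CPM in WT (log2 difference -0.2, SE 0.06, adjusted p = 0.107). Members with a pyrimidine run in the start window (25) had a median of -0.19 and those without (34) a median of -0.17, the ranges overlapping.

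Rpl7l1, a paralog of Rpl7, was the only coding member with a log2 difference above 0 once copies were summed. No copy was added to its own row. It had 77.5, 76.5, 75.3 and 70.3 CPM in mutants, against 68.6, 78.9, 71.3 and 73.4 CPM in WT, a log2 difference of 0.04 (SE 0.06, adjusted p = 0.836) within the spread of the libraries.

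Some ribosomal proteins have a second gene that can supply a variant protein. Of a list of 17 genes, all but Rpl26 from such pairs, 14 were tested. The 14 were both genes of 5 pairs (the pseudogene Rps4l beside Rps4x), Rpl3, Rpl10 and Rpl39 without their partners, and Rpl26, listed without one. Of the 14, 13 were below 0 and 0 were called, and the median was -0.18. Rps27, a zinc finger protein of the small subunit, had 151, 156, 236 and 197 CPM in mutants, against 240, 244, 241 and 207 CPM in WT, a log2 difference of -0.35 (SE 0.11, adjusted p = 0.148). Its paralog Rps27l, a target of p53, had 48.8, 55.7, 61.8 and 57.9 CPM in mutants, against 56.2, 59.6, 55.9 and 52.1 CPM in WT, a log2 difference of -0.001 (SE 0.08, adjusted p = 0.998). The 2 genes have the same coding length of 252 bases, and mutant replicates 1 and 2 were well below WT for Rps27 and within or just below the WT range for Rps27l. The difference between the 2 paralogs was not tested.

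Rpl22l1, which can take the place of Rpl22, had 72.7, 68.2, 72.9 and 66.1 CPM in mutants, against 70, 81.4, 77.8 and 71.5 CPM in WT, with overlap (log2 difference -0.1, SE 0.06, adjusted p = 0.493). Rps4l, a transcribed pseudogene of Rps4x, averaged 55.4 ± 4.79 CPM in mutants and 61.9 ± 5.67 CPM in WT, also with overlap. Rpl3, at the peptidyl transferase centre, and Rpl10, needed for subunit joining, each shared counts with 1 copy, the pseudogene Rpl3-ps1 and Rpl10-ps3, which the annotation lists as protein-coding. Summed with its copy, Rpl3 had 840, 843, 944 and 869 CPM in mutants, against 963, 950, 951 and 950 CPM in WT (log2 difference -0.13, SE 0.05, adjusted p = 0.23). The corresponding sums for Rpl10 were 597, 605, 678 and 624 CPM in mutants, against 650, 678, 660 and 656 CPM in WT (log2 difference -0.08, SE 0.05, adjusted p = 0.48).

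The P stalk, through which the ribosome recruits elongation factors, is made of Rplp0 and pairs of the acidic proteins Rplp1 and Rplp2. Rplp1 had 331, 405, 518 and 474 CPM in mutants, against 507, 573, 521 and 453 CPM in WT. Rplp2 had 142, 176, 230 and 216 CPM in mutants, against 214, 246, 243 and 198 CPM in WT. For both, mutant replicate 1 was the lowest library, mutant replicate 2 came next, and WT replicate 4 was below mutant replicates 3 and 4. The log2 differences were -0.26 for Rplp1 (SE 0.11, adjusted p = 0.285), -0.26 for Rplp2 (SE 0.12, adjusted p = 0.351) and -0.13 for Rplp0 (SE 0.06, adjusted p = 0.308).

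Levels were also divided by coding length, which gives only a rough scale between genes. Reads from the untranslated parts of a transcript are counted, but that length leaves those parts out. Genes with short coding sequences can thus rank too high. Per kilobase of coding sequence, and with copies summed, the 79 coding members had a median level of 717 CPM in mutants (quartiles 569 and 861) and 801 CPM in WT (quartiles 670 and 950). On this scale Rpl39, with the shortest coding sequence, ranked highest in both genotypes, with 1382 ± 375 CPM per kilobase in mutants and 1757 ± 183 in WT. Rplp0 had 1170 ± 92.3 in mutants and 1286 ± 50 in WT. Rpsa, also the laminin receptor, had 1164 ± 102 in mutants and 1266 ± 71.5 in WT. Per coding kilobase, Rplp0 and Rpsa do not differ beyond their spread.

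The lowest levels per kilobase belonged to Rpl7l1 and Rps27a (SD, n = 4 each). Rpl7l1 had 102 ± 4.34 in mutants and 99.1 ± 5.91 in WT. Rps27a, made as a fusion with ubiquitin, had 81.7 ± 16.8 in mutants and 104 ± 12.9 in WT. The Rps27a level is that of its own row, to which no copy was added. Rps27a shared 71.94% of its stretches with 14 other annotated genes, none of them among the genes measured. Any reads assigned to those genes could not be added back, and their part in its low level was not tested. The paralogs Rpl22l1, Rps27l and Rpl36al were also among the 6 lowest in WT. Ranks by level differed by no more than 5 places between the genotypes for 70 of the 79 genes, and by 19 places at most, for Rps28.

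The wider translation machinery was read from lists of fixed membership. None of these lists had a called member, where 2.24% of all genes were called. Ubiquitin fusion and ribosome-bound proteins had a median log2 difference of -0.06 over 9 genes, all below 0. Among them Tpt1, whose mRNA is a known TOP mRNA, averaged 1041 ± 61.2 CPM in mutants and 1147 ± 34.3 CPM in WT (log2 difference -0.14, SE 0.05, adjusted p = 0.212). Elongation factors had a median of -0.01 with 6 of 12 below 0, and initiation factors -0.006 with 20 of 35. The smallest p among initiation factors was that of Eif3k, a subunit of eIF3, with 83.6 ± 5.68 CPM in mutants and 97.1 ± 3.06 CPM in WT (log2 difference -0.22, SE 0.06, adjusted p = 0.0763). Eef2k, the kinase that inhibits the elongation factor Eef2, averaged 56.5 ± 5.39 CPM in mutants and 48.1 ± 3.13 CPM in WT (log2 difference 0.23, SE 0.08, adjusted p = 0.156).

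Genes that make ribosomes rather than form part of them stood nearer to 0. Ribosome biogenesis factors had a median of -0.03 with 34 of 54 below 0, and RNA polymerase I genes -0.03 with 8 of 15. Emg1, an rRNA methyltransferase, averaged 42.9 ± 2.12 CPM in mutants and 49.1 ± 1.98 CPM in WT (log2 difference -0.2, adjusted p = 0.148). Polr1b, the second largest subunit of RNA polymerase I, averaged 31.3 ± 2.05 CPM in mutants and 33.9 ± 2.76 CPM in WT (log2 difference -0.11, adjusted p = 0.544). Regulators of the mTOR, Myc and TOP mRNA pathways had a median of -0.006 with 12 of 22 below 0. Rptor, a subunit of mTOR complex 1, averaged 59.8 ± 1.74 CPM in mutants and 63.8 ± 4.43 CPM in WT (log2 difference -0.09, adjusted p = 0.531).

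Mitochondrial ribosomal protein genes had a median of -0.08, with 63 of 79 below 0, against 49.7% of all genes. Unlike the rule for members, this list kept symbols with a pseudogene suffix, Mrpl23-ps1 and Mrpl48-ps. An unadjusted p under 0.05 was reached by 9 of the 79, all lower, against 7.85% of all genes in that direction. Against the WT mean, their median stood at -0.1, -0.12, -0.01 and -0.08 in mutant replicates 1 to 4, and at -0.01, 0.04, 0.01 and -0.03 in WT replicates 1 to 4. As for the cytosolic genes, mutant replicates 1 and 2 were lowest and replicate 3 was nearest to WT, over a narrower range. Mrpl30 averaged 46.7 ± 1.62 CPM in mutants and 54.2 ± 1.9 CPM in WT (log2 difference -0.22, SE 0.06, adjusted p = 0.0785). Whether the cytosolic and the mitochondrial genes differ in their response was not tested.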

How the data were processed

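Polyadenylated RNA of 8 libraries was read from 1 end, per the labels' protocols. The submitters' processing notes name cutadapt 1.2.1, Bowtie2 0.12.7, RSEM 1.16, edgeR, limma and build mm9. The deposited values are a score: a log2 CPM (prior of 0.5 counts, normalised library size) times a constant per column. Each column was divided by its constant, and whole counts then came back for 100% of values (tolerance 0.001 counts). The authors' normalisation was kept.

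Symbols, coding lengths and transcripts came from GENCODE M21 (GRCm38), and 438 of 13869 genes had no symbol. Mutant and WT libraries entered a limma fit (version 3.58.1, R 4.3.3; lmFit, eBayes with trend) of 13740 genes of mean log2 CPM of at least 0. P-values were two-sided and Benjamini-Hochberg adjusted over all genes tested, with calls at 0.05. The script was tested on simulated data. Copies are pseudogenes, or genes of equal coding length, that share at least 10% of a member's 50-base stretches. Replicate numbers did not pair samples (correlations of -0.04 to 0.1).

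Members and lists were chosen with earlier results of these data known. The rule for named genes took Mib1, any called member, the 6 members of smallest p in each direction, the 4 highest and 3 lowest in level, paralog pairs, the P stalk, the 2 largest and 2 smallest SDs, and from each list the gene of smallest p or up to 3 called genes. Other genes were named after their values were seen. Alternatives numbered 25, of which 2 (copies summed, and mutant replicates 1 and 2 left out together) were added after seeing the data.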

Additional observations from a re-analysis of the deposited data

Results flagged for a closer look

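Dixon's ratio for an outlying value was applied to 82 groups of 4 libraries, and 5 WT values were farther from their group than it allows; chance flags about 1 group in 20. Rps18 had 6.88 CPM in WT replicate 2, where the other WT libraries had 79 to 90.1 CPM. Rps3a3 had 76.2 CPM in WT replicate 4, against 150 to 163 CPM in the others. Both rows share sequence with other rows, and their summed families lay close together in WT. Rps27 had 207 CPM in WT replicate 4, against 240 to 244 CPM in the others. Rpl7 had 766 CPM in WT replicate 2, against 736 to 740 CPM, and Rps23 had 299 CPM there, against 274 to 278 CPM. WT replicate 2 held the highest value of the 8 libraries for 58 of the 84 members.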

How the results depend on the processing

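Of 25 alternatives, 23 left the number of called members at 0, including the replicate block (0 members, 240 of all genes) and voom weights. It was 2 at an adjusted p under 0.1. Leaving out 1 library gave 0 to 23, the 23 being without mutant replicate 3, where 477 of 13740 genes were called; 8 of the named members were then called (Rpl10, Rpl22, Rpl35a, Rpl36a, Rpl36al, Rpl39, Rps25 and Rps27). The cause was not tested. The members' median stayed below 0 in every alternative run, from -0.25 without mutant replicate 3 to -0.06 without mutant replicates 1 and 2. Large minus small subunit, 0.01, was -0.024 by means, -0.001 under quantile scaling and -0.013 to 0.007 with 1 library left out. The RNA polymerase I list was at 0.012 without mutant replicates 1 and 2, and ran from -0.038 to 0.006 with 1 library left out. The mTOR, Myc and TOP list was at 0.013 with the erythroid covariate and -0.012 to 0.018 with 1 library left out. Without mutant replicates 1 and 2, the mitochondrial ribosomal proteins had -0.027 and the paralog pairs -0.096. Of 688 alternative values of named members, 31 had the opposite direction, none of them called. Over all genes, the covariate for erythroid level left 62 calls, against 308.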
